A study of Mus musculus with 6 samples.

Results

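The genes described here are 9 genes of early B cell development, chosen by function from the 23337 genes in the count table: the commitment factors Ebf1 and Pax5, the signalling chains Cd79a and Cd79b, the surrogate light chain genes Vpreb1 and Igll1, the adaptor and kinase genes Blnk and Blk, and the cytokine receptor gene Il7r. All 9 were found by symbol. They were read in 6 polyA-selected RNA-seq libraries of sorted leukaemia initiating cells (LICs), the cells of a leukaemia that can start it anew, from mice. The adult group held replicates 1, 2 and 4 and the neonatal group replicates 4, 7 and 8, and age is the only factor on the labels. Every library is labelled as sorted LICs with haematopoietic stem and progenitor cells as source. Strain, sex, driver of the leukaemia, sorting gate and treatment are not given in the labels, nor is it stated whether replicates came from separate animals. A p-value here therefore reflects the spread between libraries, which may be technical.

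Commitment of a lymphoid progenitor to the B lineage starts with interleukin-7 receptor signalling and the E protein TCF3 (E2A), which lead to expression of EBF1. EBF1 in turn switches on PAX5, the factor that keeps the B cell programme in place and represses other fates. A progenitor that has rearranged its heavy chain gene then shows a pre-B receptor on its surface, made of that heavy chain, the surrogate light chain (VPREB1 with IGLL1, also called lambda 5) and the signalling pair CD79A and CD79B, and signals through SRC-family kinases such as BLK and LYN, the kinase SYK and the adaptor BLNK. Some of these genes can be transcribed before commitment, and acute leukaemias can carry genes of a lineage other than their own.

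Cd79a, Vpreb1 and Igll1 are classical targets of TCF3 and EBF1, and all had reads in every library, so the 250 bases upstream of each start in RefSeq (build GRCm38.p6) are shown. Capitals mark the E-box letters CAGGTG or CAGCTG, which E proteins can bind, and the shorter EBF motif TCCCNNGG, each searched on both strands.
Cd79a, chr7:24897247-24897496, plus strand: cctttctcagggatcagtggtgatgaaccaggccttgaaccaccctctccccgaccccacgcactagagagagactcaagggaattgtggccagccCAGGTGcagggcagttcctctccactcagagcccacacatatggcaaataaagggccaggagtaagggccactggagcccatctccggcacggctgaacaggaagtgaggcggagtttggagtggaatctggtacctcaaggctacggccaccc
Igll1, chr16:16863986-16864235, minus strand: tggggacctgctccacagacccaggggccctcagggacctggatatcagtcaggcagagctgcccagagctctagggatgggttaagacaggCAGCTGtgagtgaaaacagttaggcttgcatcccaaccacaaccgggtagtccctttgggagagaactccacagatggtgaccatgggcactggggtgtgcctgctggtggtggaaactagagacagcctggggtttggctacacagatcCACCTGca
Vpreb1, chr16:16869256-16869505, minus strand: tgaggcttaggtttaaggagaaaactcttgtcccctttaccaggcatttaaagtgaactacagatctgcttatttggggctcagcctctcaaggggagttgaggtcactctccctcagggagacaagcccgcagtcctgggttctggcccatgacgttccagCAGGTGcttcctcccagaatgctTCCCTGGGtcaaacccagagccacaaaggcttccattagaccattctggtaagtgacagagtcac
CAGGTG lay 154 bases before the Cd79a start, 8 before the Igll1 start and 88 before the Vpreb1 start, and 17.22% of the 32851 windows of this length in the promoter table held it. Igll1 also held CAGCTG 158 bases before its start, a sequence in 13.0% of windows. Only Vpreb1 of these 3 held TCCCNNGG, 65 bases before its start and beside its E-box (18.99% of windows). These matches are letters in a window and not measured binding. Of the 9 genes, 7 had an entry in the promoter table, and only the 3 above are shown. The windows of Ebf1, Pax5 and Il7r held none of these motifs, although Il7r also had reads in every library. Blnk held CAGGTG 160 bases before its start. The full EBF motif was searched too and matched none of the 7 genes.

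Library totals were 60113466 to 66132051 counts in 5 libraries and 3932833 in neonatal replicate 4, 16.2 times fewer than their mean. Levels are given as CPM, a library's counts scaled to a common library size with TMM factors. Where a library had no count, 3 counts served as its floor, 0.0425 to 0.0503 CPM in the deeper libraries and 0.897 CPM in neonatal replicate 4, which covers counting error only. That replicate also stood apart in gene length: its log2 CPM lay a median of 0.60 above the 6-library mean over genes with exons of 44 to 1712 bases, and its median deviation was -0.72 over genes with 4182 to 104320 bases, against -0.21 to 0.27 in the other libraries. Xist was at 0.610 to 0.919 CPM (adult) against 51.7 to 186 CPM (neonatal), and Ddx3y at 98.8 to 154 and 0 to 0.0148 CPM, so sex and age group cannot be told apart in these libraries. The 12 myeloid progenitor and LIC markers, Kit, Hoxa9, Meis1 and Elane among them, had counts in all 6 libraries.

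**Figure D1:**
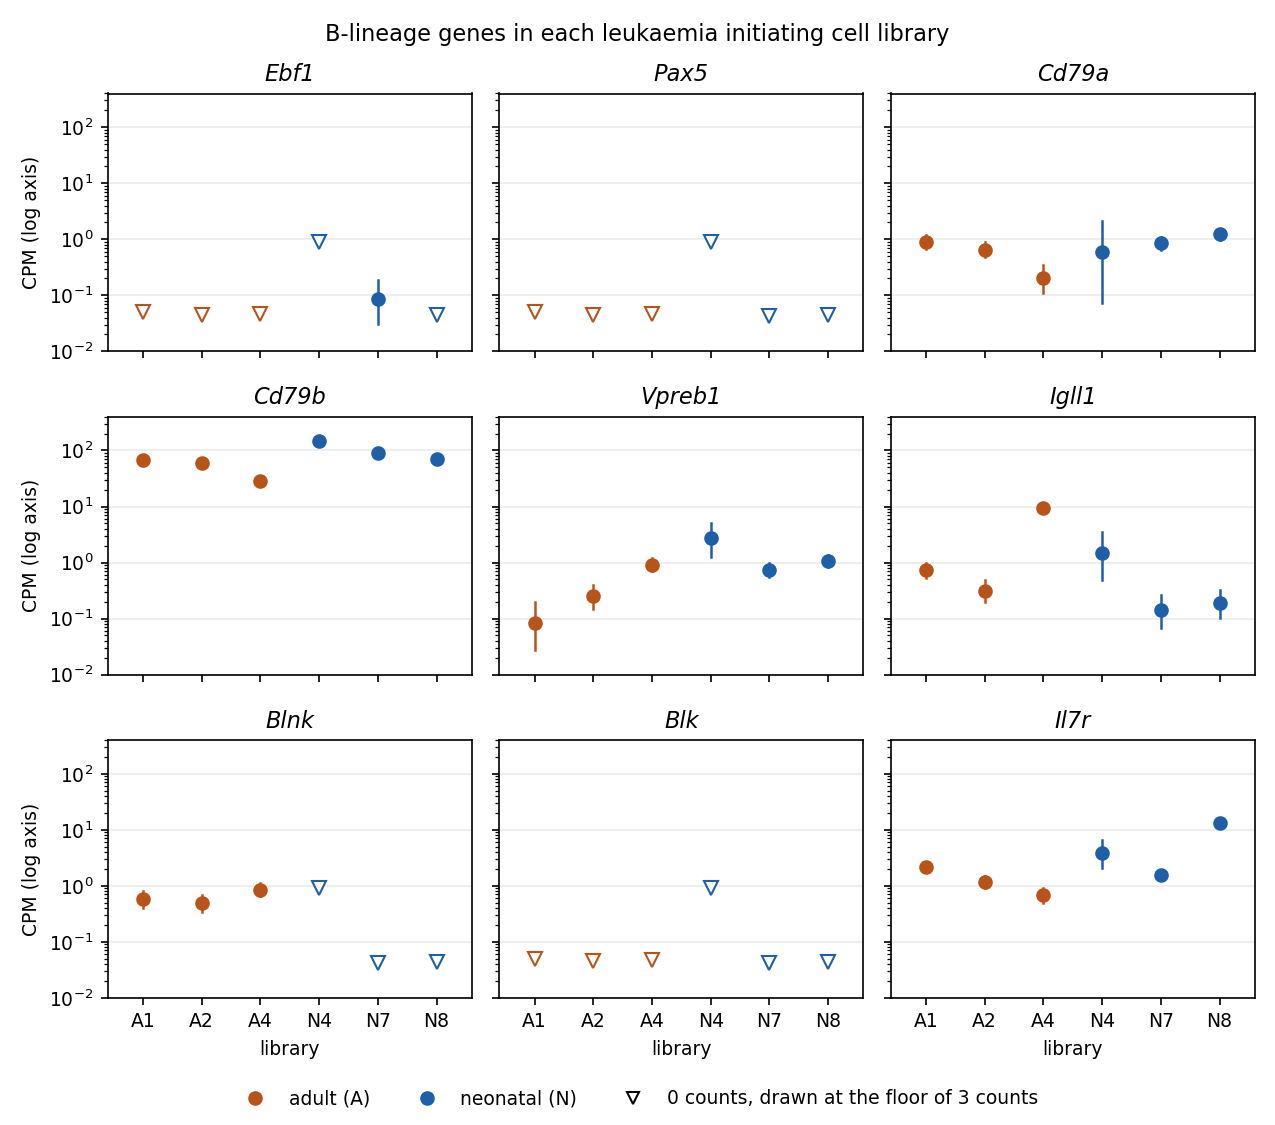
CPM of the 9 genes (log axis) in adult libraries A1, A2 and A4 and neonatal libraries N4, N7 and N8; bars are exact 95% Poisson intervals of the count and open triangles are libraries with 0 counts, drawn at the floor of 3 counts. Cd79b lies between 28.3 and 146 CPM, every other gene is at or below 13.4 CPM, and Blnk has counts in the adult libraries alone.

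The commitment factors were almost absent from the counts. Pax5 (chromosome 4, 44531506 to 44710440, mm10, 10 exons) had 0 counts in all 6 libraries. Ebf1 (chromosome 11, 44618134 to 45005172, 16 exons) had 6 counts, all in neonatal replicate 7, or 0.0850 CPM with an exact 95% Poisson interval of 0.0312 to 0.185 CPM. The other 5 libraries had none. In bulk RNA such as this, fewer cells of a type and less RNA per cell cannot be told apart. Neither gene passed the filter on low counts, so neither was tested between the groups. In neonatal replicate 4 the floor lies above the level of Ebf1 in neonatal replicate 7, and a level of that size was not detectable there.

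The signalling chains differed widely from each other. CD79A and CD79B form the heterodimer that passes the signal of B cell receptors into the cell. Cd79b (chromosome 11, 106311341 to 106314529, 6 exons) stood at 68.5, 60.4 and 28.3 CPM (adult replicates 1, 2 and 4) against 146, 90.3 and 70.7 CPM (neonatal replicates 4, 7 and 8). The groups did not overlap, but the lowest neonatal and the highest adult library lay close together. Cd79a (chromosome 7, 24897511 to 24902197, 5 exons) stood at 0.905, 0.655 and 0.203 CPM (adult) against 0.598, 0.850 and 1.23 CPM (neonatal), with 2 counts behind the value of neonatal replicate 4. Those groups overlapped. Of the 75-base stretches in Cd79a transcripts, 4.48% also occur in Gm32220. Per kb of exon, Cd79b was 83.8, 102 and 155 times as high as Cd79a in the adult libraries and 271, 118 and 63.7 times as high in neonatal replicates 4, 7 and 8. Adult replicate 4 was the lowest library for both genes. Cd79b made up 70.1% to 96.4% of all reads on the 9 genes in a library (exact Clopper-Pearson 95% intervals 68.3% to 71.8% and 95.9% to 96.8% at those ends), and per kb it ranked above 71.9% to 91.2% of the genes kept for testing.

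Neonatal LICs averaged 102 ± 39.1 CPM of Cd79b and adult LICs 52.4 ± 21.3 CPM (SD, n = 3 each), a log2 fold change of 0.96 ± 0.44 (SE, edgeR quasi-likelihood test, adjusted p = 0.447, range over 18 alternatives 0.208 to 0.698). With exons of 1198 bases Cd79b falls among the short genes. After each library's trend on exon length was removed the log2 fold change was 0.79 (edgeR adjusted p = 0.456). It was 0.63 without neonatal replicate 4, the highest library (edgeR adjusted p = 0.307), and 0.66 without adult replicate 4 (edgeR adjusted p = 0.672). For Cd79a the means were 0.892 ± 0.318 and 0.588 ± 0.356 CPM (SD, n = 3 each), or 0.65 ± 0.81 as log2 fold change (SE; edgeR gave adjusted p = 0.824, range over 17 alternatives 0.362 to 0.971). The Cd79a value became 0.25 without adult replicate 4, 0.35 without neonatal replicate 8 and 1.13 without adult replicate 1 (edgeR adjusted p = 0.953, 0.952 and 0.883).

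The surrogate light chain genes had log2 fold changes of opposite sign, and neither passed the test. VPREB1 and IGLL1 stand in for the light chain that a pre-B cell has not yet made, and their genes lie next to each other on chromosome 16 (Igll1 at 16860671 to 16863985 with 3 exons, Vpreb1 at 16868401 to 16869255 with 2 exons). Igll1 stood at 0.737, 0.313 and 9.41 CPM (adult replicates 1, 2 and 4) against 1.49, 0.142 and 0.193 CPM (neonatal replicates 4, 7 and 8). Adult replicate 4, with 604 counts, was thus the highest of the 6 libraries, and the groups overlapped. Vpreb1 stood at 0.0838, 0.253 and 0.919 CPM (adult) against 2.69, 0.751 and 1.08 CPM (neonatal), from 5 to 73 counts each. Its neonatal levels reached down into the adult range only through adult replicate 4. That library was the highest adult library for both surrogate light chain genes, and the lowest adult library for Cd79a, Cd79b and Il7r.

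Within a library, Igll1 was 7.77, 1.09 and 9.04 times as high as Vpreb1 per kb in adult replicates 1, 2 and 4, and 0.490, 0.167 and 0.157 times as high in neonatal replicates 4, 7 and 8. Igll1 was thus well above Vpreb1 in adult replicates 1 and 4 and below it in neonatal replicates 7 and 8. In neonatal replicate 4 the genes were not distinguishable, at 5 and 9 counts. Their exact 95% Poisson intervals overlapped there (0.485 to 3.49 CPM for Igll1 and 1.23 to 5.11 CPM for Vpreb1). The same held in adult replicate 2, at 21 and 17 counts (0.194 to 0.478 CPM for Igll1 and 0.147 to 0.405 CPM for Vpreb1). Between the groups, Igll1 differed by -3.05 ± 1.60 as log2 fold change (SE; edgeR gave adjusted p = 0.515, range over 17 alternatives 0.0123 to 0.980), and Vpreb1 by 1.75 ± 1.05 (SE; edgeR gave adjusted p = 0.579, range over 17 alternatives 0.164 to 0.900). Without adult replicate 4 these values were -0.17 and 3.05 (edgeR adjusted p = 0.980 and 0.390), and without neonatal replicate 4 Vpreb1 was at 1.14 (edgeR adjusted p = 0.542). The Vpreb1 reads carry a limit of their own: 12.9% of the 75-base stretches in its GENCODE transcripts also occur in Vpreb2 or Top3b, and reads of the near-identical Vpreb2 cannot always be told apart. Vpreb1 and Vpreb2 together stood at 0.0838, 0.342 and 1.11 CPM (adult) against 3.29, 0.878 and 1.30 CPM (neonatal), in the same order as Vpreb1 alone. With Vpreb2 added, the value in adult replicate 2 was 0.342 CPM, from 23 counts. It lay within the interval of Igll1 in that library (0.194 to 0.478 CPM), so the order there was not distinguishable either.

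Blnk was counted in the adult libraries alone. BLNK (SLP-65) is the adaptor that SYK phosphorylates downstream of the pre-B receptor to bring together BTK and phospholipase C gamma, and it is also made in macrophages. Blnk (chromosome 19, 40928927 to 40994535, 17 exons) had 35, 33 and 55 counts in adult replicates 1, 2 and 4 (0.587, 0.491 and 0.857 CPM) and 0 counts in neonatal replicates 4, 7 and 8. At the mean adult level, 45.5 and 43.5 counts would fall in neonatal replicates 7 and 8 but only 2.16 in neonatal replicate 4, where the difference was not detectable at this depth. The adult mean was 0.645 ± 0.190 CPM (SD, n = 3). With 3 counts summed over the neonatal group as the floor, neonatal LICs were at least 30.4-fold lower. In edgeR on 6 libraries the adjusted p was 0.140, and without neonatal replicate 4 it was 0.0499 (range over 17 alternatives 0.00187 to 0.416). Because Blnk had no neonatal count, it passed the filter through its adult libraries alone.

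C1qa, Cd5l and the summed neutrophil markers were higher in every adult than in every neonatal library, as Blnk was. C1qa, a complement gene of tissue macrophages, was at 3.39, 0.819 and 1.37 CPM (adult) against 0, 0 and 0.222 CPM (neonatal), and Cd5l, another macrophage gene, at 1.59, 0.417 and 0.623 CPM and 0 counts. All 9 macrophage markers in the table had counts in the 3 adult libraries and 4 to 8 of them in the neonatal ones, where their summed level was 302 to 564 CPM against 227 to 804 CPM. Of these 9 genes, 7 had a negative and 2 a positive log2 fold change. The 9 neutrophil markers summed to 5609, 14328 and 1757 CPM in the adult libraries and 27.9 to 155 CPM in the neonatal ones. Among the adult libraries Blnk was highest in replicate 4, the library with the lowest sum for either list. The part of these cells in the Blnk difference was not tested.

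Blk (chromosome 14, 63372837 to 63417187, 13 exons), which encodes a SRC-family kinase found mainly in B cells, had 0 counts in all 6 libraries. It was not tested.

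Il7r was detected in every library and was highest in neonatal replicate 8. The gene (chromosome 15, 9506159 to 9529876, 8 exons) encodes the interleukin-7 receptor alpha chain, which also serves the cytokine TSLP and is needed for B cell development in the mouse. It stood at 2.14, 1.18 and 0.686 CPM (adult replicates 1, 2 and 4) against 3.89, 1.54 and 13.4 CPM (neonatal replicates 4, 7 and 8). Neonatal replicate 7 lay within the adult range, so the groups overlapped. The neonatal mean was 6.27 ± 6.28 CPM against 1.34 ± 0.743 CPM for adults (SD, n = 3 each). On the log2 scale the fold change was 2.25 ± 0.89 (SE; edgeR gave adjusted p = 0.375, range over 18 alternatives 0.0462 to 0.826). Without neonatal replicate 8 it was 0.97 (edgeR adjusted p = 0.826).

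Counting over the set, 6 of the 9 genes passed the filter and 0 passed the test over all genes in edgeR on 6 libraries, where 0.0527% of 13272 genes did (0.0151% higher and 0.0377% lower in neonatal LICs). At an unadjusted p under 0.05 there were 2 of the 6, Blnk and Il7r, where 11.9% of all genes tested had one. On the same 6 libraries DESeq2 and limma voom with library quality weights each called 1, Blnk (adjusted p = 0.0124 and 0.0222), and limma voom called 0. Without neonatal replicate 4, which leaves 2 neonatal libraries, edgeR called 1 of 6, Blnk, where 5.98% of 13856 genes passed. The groups did not overlap for 1 gene higher in neonatal LICs (Cd79b) and 1 lower (Blnk), where 7.67% and 12.0% of all genes tested did so (19.6% in either direction).

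**Figure D2:**
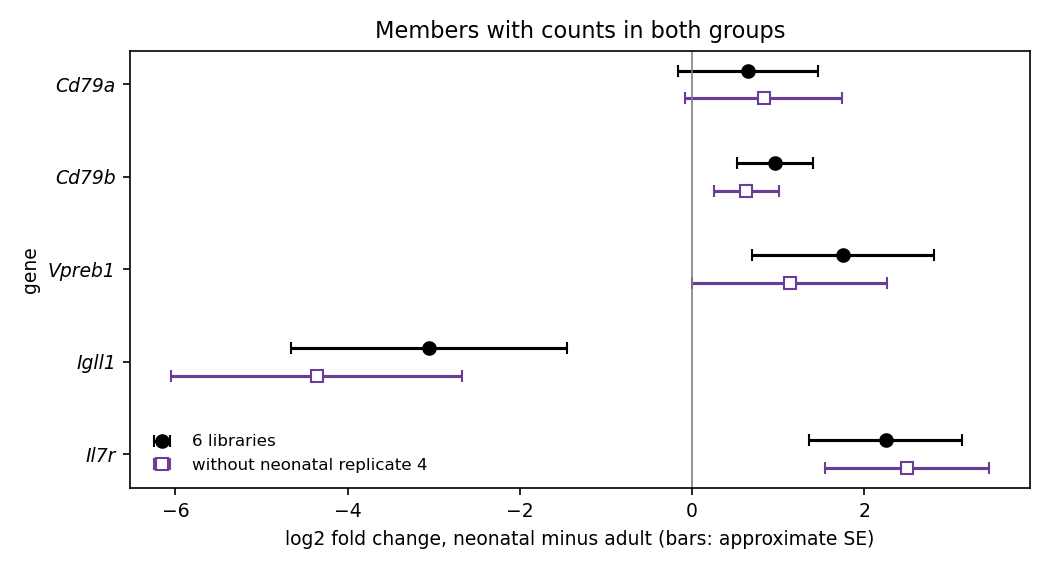
Log2 fold change, neonatal minus adult, of the 5 genes with counts in both groups, with approximate SE, from edgeR on 6 libraries (filled circles) and without neonatal replicate 4 (open squares). Values run from -3.05 for Igll1 to 2.25 for Il7r on 6 libraries, and none passed the threshold in either fit.

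Most kinase and adaptor genes that carry a pre-B receptor signal had counts, as Cd79b did, while Cd79a, Vpreb1, Igll1 and Blnk were at 9.41 CPM or less. Of 25 such genes, 24 had counts and 23 were tested, 12 with a positive and 11 with a negative log2 fold change (median 0.04, against 0.05 over all genes tested). None passed on 6 libraries in edgeR, and 1 of the 23 had an unadjusted p under 0.05, against 11.9% of all genes. Syk, the kinase that docks on CD79A and CD79B, stood at 17.2 to 22.3 CPM per kb of exon in adult LICs and at 4.99, 21.4 and 39.1 in neonatal replicates 4, 7 and 8. Btk, the kinase that activates phospholipase C gamma, was at 34.1 to 45.1 CPM per kb in adult and 24.4 to 42.1 in neonatal LICs. Myeloid cells use these proteins as well. Without neonatal replicate 4, Plcg2 (the phospholipase) and Inpp5d (the inhibitory phosphatase SHIP1) were higher and Prkcb (a protein kinase C) lower in neonatal LICs, with log2 fold changes of 1.06, 0.79 and -1.31 (edgeR adjusted p = 0.0416, 0.0499 and 0.0408). In that fit 3.72% of genes were called higher and 2.25% lower. Prkcb did not overlap between the groups, at 281 to 285 CPM (adult) against 64.6 to 138 CPM (neonatal). Malt1 and Ptprc, next by p on 6 libraries, had log2 fold changes of -0.65 and -0.53 (edgeR adjusted p = 0.437 and 0.594).

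**Figure D3:**
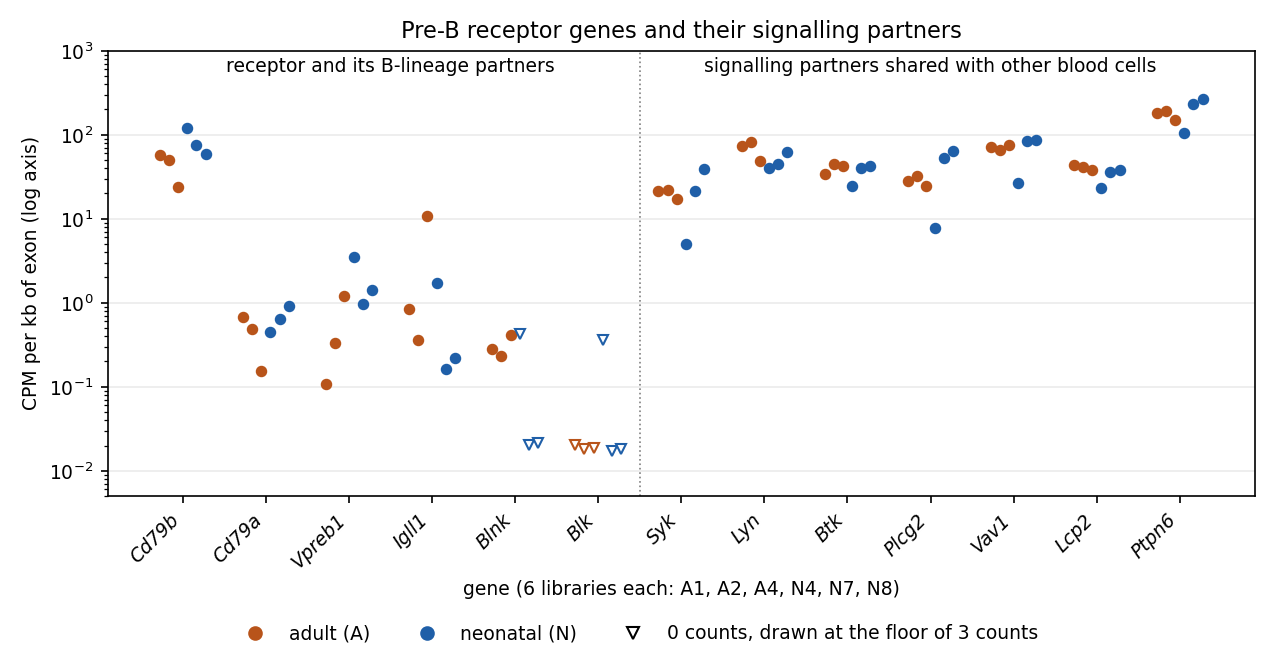
CPM per kb of exon (log axis) of pre-B receptor genes with B-lineage partners (left) and of signalling partners shared with other blood cells (right), 1 point per library in the order A1, A2, A4, N4, N7, N8; open triangles are 0 counts, drawn at the floor of 3 counts. Cd79b, at 23.6 to 122 CPM per kb, overlaps the ranges of Syk (4.99 to 39.1), Btk (24.4 to 45.1) and Lyn (40.2 to 82.6) and exceeds them in neonatal replicate 4, while Cd79a stays between 0.153 and 0.927.

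Interleukin-7 and TSLP signalling genes had counts for all 18 listed, and 16 were tested, 6 positive and 10 negative (median -0.21). None passed on 6 libraries in edgeR, 2 of the 16 with an unadjusted p under 0.05, against 11.9% of all genes. Crlf2, which pairs with the IL7R chain as the TSLP receptor, was at 30.2, 33.9 and 30.9 CPM (adult) against 26.0, 88.5 and 99.8 CPM (neonatal replicates 4, 7 and 8). Without neonatal replicate 4, the only neonatal library below the adult range, Crlf2 rose with a log2 fold change of 1.58 (edgeR adjusted p = 0.0320). Jak3, Stat5a and Stat5b, the kinase and the transcription factors that act after the receptor, rose in that fit too, by 1.40, 1.03 and 1.02 (edgeR adjusted p = 0.0360, 0.0400 and 0.0440). Exons of Jak3 overlap those of Insl3 in the annotation, and the counting used no strand. Il2rg, the common gamma chain that pairs with IL7R for interleukin-7, was at 22.6 to 27.6 CPM (adult) against 25.6 to 48.2 CPM (neonatal) (edgeR adjusted p = 0.516). Tslp itself was at 0.759 to 7.47 and 0.104 to 0.921 CPM (edgeR adjusted p = 0.365), and Il7 had at most 0.0444 CPM.

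Of 27 factors that act with or before EBF1 and PAX5, 24 had counts and 19 were tested, 10 positive and 9 negative (median 0.24). None passed on 6 libraries in edgeR, 7 of the 19 with an unadjusted p under 0.05, against 11.9% of all genes. Tcf3, the E protein gene upstream of Ebf1, was at 91.0, 90.0 and 121 CPM (adult) against 62.5, 200 and 261 CPM (neonatal replicates 4, 7 and 8). Without replicate 4 it rose, with a log2 fold change of 1.21 (edgeR adjusted p = 0.0414), as did Mef2d, at 1.49 (edgeR adjusted p = 0.0360). Bcl11a, a factor needed for early B cell development, was at 1.04, 2.89 and 0.530 CPM in adult LICs while neonatal LICs had none, at least 70.0-fold lower with 3 summed counts as the floor (edgeR adjusted p = 0.143, and 0.0478 without neonatal replicate 4). Like Blnk, it passed the filter through its adult libraries alone. Ets1 was at 13.3 to 50.2 CPM (adult) against 2.09 to 7.05 CPM (neonatal), and Tcf4, an E protein gene, at 21.4 to 72.7 and 98.6 to 521 CPM. Neither passed in either fit (edgeR adjusted p = 0.155 and 0.257 on 6 libraries). Lef1, Pou2af1 and Ebf4 had no count.

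Known EBF1 and PAX5 targets, 17 with Igll1 among them, had counts for 13, and 12 were tested, 5 positive and 7 negative (median -0.65). None passed on 6 libraries in edgeR, 2 of the 12 with an unadjusted p under 0.05, against 11.9% of all genes. Lef1, Dtx1 and Pou2af1 were among those with 0 counts. Bank1, a scaffold of B cell receptor signalling, was at 23.7, 6.61 and 28.4 CPM (adult) against 3.89, 0.368 and 0.519 CPM (neonatal). Without neonatal replicate 4 it fell by 5.45 on the log2 scale (edgeR adjusted p = 0.0360), and Cplx2, a complexin of vesicle release, fell by 4.17 (edgeR adjusted p = 0.0493). Chchd10, a mitochondrial protein gene, was at 6.42 to 29.4 CPM (adult) against 27.2 to 68.4 CPM (neonatal) (edgeR adjusted p = 0.457).

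Genes of V(D)J recombination, the cutting and joining that builds antibody genes, were tested for 10 of 12, 3 positive and 7 negative (median -0.04), and none passed with or without neonatal replicate 4 in edgeR, 2 of the 10 with an unadjusted p under 0.05 on 6 libraries, against 11.9% of all genes. Rag1 had no count in any library, and Dntt, which adds bases at the joints, was at 0.212 CPM in neonatal replicate 7 with none elsewhere. Rag2, the partner of Rag1, was at 0, 1.74 and 0.717 CPM (adult) against 6.28, 8.34 and 8.53 CPM (neonatal), without overlap (log2 fold change 3.24, edgeR adjusted p = 0.392). It lies within B230118H07Rik, a gene on the other strand, and the counts do not separate strands. No exon of another gene overlaps the Rag2 exons in the annotation. Xrcc5 and Prkdc, which encode parts of the DNA-dependent protein kinase that joins broken ends, had log2 fold changes of -2.93 and -0.73 (edgeR adjusted p = 0.399 and 0.530).

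Several defining markers of mature lymphocytes had no count, while other markers on the same lists were well detected. Of 14 other B cell markers in the table, Ms4a1 and Faim3 were among those with no count, and the list's sum of 192 to 285 CPM (adult) against 148 to 324 CPM (neonatal) was mostly Cd37 (106 to 272 CPM), a gene of many leukocytes. Tnfrsf13b, which encodes the receptor TACI, was at 17.8 to 38.1 CPM over the 6 libraries. The immunoglobulin constant region genes Ighm, Ighd, Igkc and Iglc1 were looked up but not found under these symbols in the count table. T cell markers summed to 1.98 to 13.5 and 2.39 to 8.19 CPM with Cd3e, Cd3g, Cd4 and Themis at 0, and natural killer markers to 47.1 to 115 and 41.1 to 290 CPM with Ncr1, Gzma and Klra8 at 0. The natural killer sum was mostly Nkg7, a gene of cytotoxic granules (35.9 to 270 CPM), and Klrk1 reached 18.5 CPM in neonatal replicate 4. Plasmacytoid dendritic cell markers summed to 109 to 156 and 207 to 654 CPM. All 6 tested genes of that list had positive log2 fold changes (median 0.77), as did 7106 of all 13272 genes tested. None passed in edgeR, and 2 of the 6 had an unadjusted p under 0.05, against 11.9% of all genes. Tcf4, Bst2 and Ly6d did not overlap and were higher in neonatal LICs, as were 7.67% of all genes tested. Siglech was at no more than 0.0893 CPM and higher in adult LICs. Early lymphoid markers summed to 341 to 918 and 935 to 1932 CPM, and conventional dendritic cell markers to 9.02 to 25.2 and 258 to 1233 CPM. Flt3, on both lists, ranged from 4.58 to 19.4 CPM (adult) and stood at 256, 568 and 1231 CPM (neonatal replicates 4, 7 and 8). It made up nearly all of the conventional dendritic cell sum in those neonatal libraries (258, 573 and 1233 CPM). That sum thus reflects 1 gene and not the list. Of the 4 tested genes of that list, Flt3 among them, 2 had a positive and 2 a negative log2 fold change (median -0.23). Erythroid markers summed to at most 3.66 CPM, and megakaryocyte markers to 0.545 to 7.07 and 0.897 to 47.6 CPM.

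Genes whose levels ran most like those of each tested member over the 6 libraries were sought among 9030 genes, by the root mean square difference of centred log2 CPM. For Cd79b these were Tmsb10, an actin-binding thymosin gene, and Ctsc, the cathepsin C gene (differences of 0.17 each). Smad7 (0.18) and Nfix (0.22) ran closest to Cd79a. Arl6 (0.36) and Chchd10 (0.45), the latter also on the target list above, ran closest to Vpreb1. For Il7r the closest were Fbxo17 (0.50) and Plekho1 (0.55), and for Blnk they were Bzrap1 (0.64) and Syne2 (0.65). Igll1 had the least close neighbours, Cmah (0.81) and Pcbd1 (0.87), and Cmah shared its peak in adult replicate 4, with 1676 CPM there and 121 to 262 CPM elsewhere. With 6 libraries of unequal depth these are descriptions only.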

How the data were processed

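Raw read counts per gene were deposited by the authors, made with featureCounts 1.5.1 per the file headers, with primary alignments counted by gene identifier, no strand option and a UCSC annotation of mm10. Trimmomatic, Bowtie, TopHat and DESeq2 are listed, without versions, per the submitters' processing notes. Exon lengths are those deposited in the same table.

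Neonatal was compared with adult in edgeR 4.0.16 (R 4.3.3): filterByExpr with a minimum count of 10, TMM, a robust quasi-likelihood fit and Benjamini-Hochberg adjustment over all genes kept, threshold 0.05. The SE is the log2 fold change over the square root of F and is approximate. Alternatives used DESeq2 1.42.0 and limma 3.58.1, other scalings and filters, thinning and each library left out. Removal of each library's trend on exon length was added after the data were seen. The fit was tested on simulated counts. At a true log2 fold change of 1 in either direction, 0 of 49 genes were called. At 2 it was 17 of 47, at 3 it was 35 of 50 and at 5 it was 44 of 49. Of genes simulated without a difference, 9 of 12798 were called. The genes given a difference were drawn at random from all genes kept. The shares called therefore do not show how often genes with counts as low as those of most members would be called.

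The members and the gene lists were chosen with earlier results of these data known. Pathway genes are named where called in either fit or among the 3 smallest p-values of a list, and 2 most similar genes per tested member among those with a mean of at least 5 CPM. C1qa, Cd5l, Syk, Btk, Il7, Cd37, Tnfrsf13b, Nkg7, Klrk1, Flt3, Siglech, Bst2, Ly6d, Dntt and genes named for having no count fall outside this rule and were chosen after their values were seen. Results for some listed genes are not reported here.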

Additional observations from a re-analysis of the deposited data

How the results depend on the processing

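Over all genes, 7 were called on 6 libraries, 1 to 828 with a library left out (1, 2 and 3 without adult replicates 1, 2 and 4, 4 without neonatal replicate 7 and 828 without neonatal replicate 4), 759 by DESeq2, 1056 by limma voom with library quality weights and 3320 by DESeq2 without neonatal replicate 4. Of the 9 members, 0 were called on 6 libraries, 0 to 1 with a library left out, 1 by DESeq2, 1 by limma voom with library quality weights and 3 by DESeq2 without neonatal replicate 4. Blnk was among them each time, and the last 3 were Blnk, Igll1 and Il7r (adjusted p = 0.00187, 0.0123 and 0.0462). The cause was not tested. The 6 tested members kept the direction of their log2 fold change in every alternative that could test them, 17 or 18 each. The alternatives reuse the same libraries, and for Blnk, with no neonatal count, no other direction was possible. Thinned to the smallest library, 2 members could be tested, Cd79b and Il7r, so a depth of that size is too low to test Cd79a, Vpreb1, Igll1 and Blnk. Ebf1, Pax5 and Blk did not pass the filter at full depth either. The Igll1 difference rests on adult replicate 4 and that of Il7r on neonatal replicate 8, as given above. No paired analysis was possible because the groups share only replicate number 4.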

Other observations

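Igj, the antibody J chain gene, chosen after its values were seen, had 283, 17 and 2 counts in adult replicates 1, 2 and 4 (4.74, 0.253 and 0.0312 CPM) and 0, 5 and 0 counts in neonatal replicates 4, 7 and 8. Adult replicate 1 thus stood apart from the rest, as adult replicate 4 did for Igll1. Vpreb3, a further surrogate light chain family gene, had 2, 12 and 7 counts in the adult and 2, 39 and 4 counts in the neonatal libraries, or 0.598, 0.552 and 0.0593 CPM in neonatal replicates 4, 7 and 8 against at most 0.179 CPM in the adult libraries.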
